A study of Felis catus with 20 samples.

Results

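In subcutaneous adipose tissue of 10 cats, 12706 genes were measured above a minimum level. Of these, 25 differed far more between cats than between the libraries of the same cat from short days (SD) and long days (LD). Single cats could still change between day lengths. A gene was taken into this group when its intraclass correlation (ICC) over the 10 cats was at least 0.8. The ICC is the mean square between cats minus the mean square between the libraries of the same cat, divided by their sum, so that it approaches 1 when the libraries of a cat are nearly equal and the cats differ. It was computed on log2(CPM + 1), where CPM is a gene's count per 1000000 reads counted on the genes of the library. The minimum level was 1 CPM in at least 10 of the 20 libraries. All 25 genes passed it by construction, and 9184 of the 21890 genes in the deposited table did not. The labels SD and LD were not used, but a difference between day lengths adds to the mean square between the libraries of a cat, so a small one favoured the choice of a gene.

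The cats were healthy adult neutered male domestic shorthair cats, 4 yr old, fed to hold body weight. Each was housed on SD (8 hr light and 16 hr dark) and on LD (16 hr light and 8 hr dark) in a crossover, and subcutaneous abdominal fat was taken at wk 12 of each period, which gave 10 SD and 10 LD libraries. By the sample labels 6 cats had LD first and 4 had SD first. The study's methods describe groups of equal size, each kept in its own room, which these label counts do not match. Which cats shared a room is therefore not given by the labels, order and room cannot be told apart, and order and day length were used as labelled. The samples were whole-tissue biopsies, and in such tissue fewer cells of a type and less RNA per cell cannot be told apart. Cats are numbered 1 to 10 by the replicate numbers of the labels, and both libraries of a cat carry the same number.

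Transcript levels in mammalian tissues commonly differ between individuals. Part of that variation is inherited, through sequence variants near a gene or through the presence, absence or copy number of the gene itself, and it can appear as individuals that express a transcript beside others that do not. Another part comes with cell composition, health, housing and the handling of the sample. Biopsies of the same individual taken at separate times show which differences last over that interval. These are general facts and were not examined in these cats. In the deposited table genes carry Ensembl identifiers without symbols, so the products of the 25 genes are not given here and adipocyte markers were not looked up.

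Between 15479104 and 20284720 reads per SD library and between 15883641 and 21926358 per LD library were counted on genes. At these totals 3 counts corresponded to between 0.137 and 0.194 CPM. The main principal component of log2(CPM + 1) held 56.5% of the variance over the 12706 genes. The library highest on it, SD of cat 6, had 18.0% of its reads on no annotated gene. The lowest, LD of cat 6, had 29.6%. What this component reflects was not tested. A set of 3 libraries, from cats 4, 6 and 7, carries a different letter in the column names, and the meaning of the letter is not given in the sources used here.

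The 3 members of highest ICC were genes that some cats expressed and others hardly did, on both day lengths. Some members of lower ICC, described further below, shared this pattern. ENSFCAG00000027799 had the highest ICC, 0.990. Cats 1, 3 and 8 had between 2 and 6 counts in each of their libraries, or at most 0.339 CPM, and the other 7 cats had between 374 and 890 counts, or 21.1 to 53.2 CPM. On SD the lowest value was 0.110 CPM, the median 34.6 and the highest 53.2, and on LD they were 0.117, 25.6 and 43.7 CPM. The same 3 cats were low on both day lengths and no library lay between the groups. Pooled over libraries, expression was 36.1 CPM in the 7 cats and 0.201 CPM, from 21 counts, in the 3 cats, a 179-fold difference.

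ENSFCAG00000004426 (ICC 0.972) parted the cats evenly. Cats 1, 2, 4, 8 and 9 had between 1.70 and 3.83 CPM in every library, and cats 3, 5, 6, 7 and 10 had at most 0.234 CPM, or 0 to 4 counts. ENSFCAG00000015179 (ICC 0.966) was at 0 to 2 counts in every library of cats 2, 6, 7 and 9 and at 1.06 to 6.42 CPM in the other 6 cats. On SD its lowest, median and highest values were 0, 1.29 and 4.66 CPM, and on LD 0, 2.06 and 6.42 CPM. For both genes the low and high cats were the same on SD and LD and did not overlap.

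ENSFCAG00000025730 (ICC 0.856) was at 0 to 3 counts in cats 3, 5, 6 and 10 and at 1.01 to 8.33 CPM in the other 6 cats. ENSFCAG00000015177 (ICC 0.803) was at 1 to 5 counts in cats 3, 5 and 8, and at 1.07 to 3.65 CPM in cats 1, 4, 6, 7, 9 and 10. Cat 2 lay outside both groups for the latter gene, with 0.929 CPM on SD and 3.35 CPM on LD. The sets of low cats differed among these 5 genes, but some overlapped. Cats 3, 5, 6 and 10 were low for both ENSFCAG00000004426 and ENSFCAG00000025730, while ENSFCAG00000027799 and ENSFCAG00000015179 had no low cat in common. The same pattern, with at least 3 cats under 0.5 CPM in both libraries and at least 3 cats at 1 CPM or more in both, was found in 7 of the 12706 genes (0.0551%), of which these 5 are 71.4%. Because the ICC was computed on the same values, this share describes the choice and is no test. The 2 genes with the pattern that were not chosen had ICCs of 0.742 and 0.645.

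**Figure D1:**
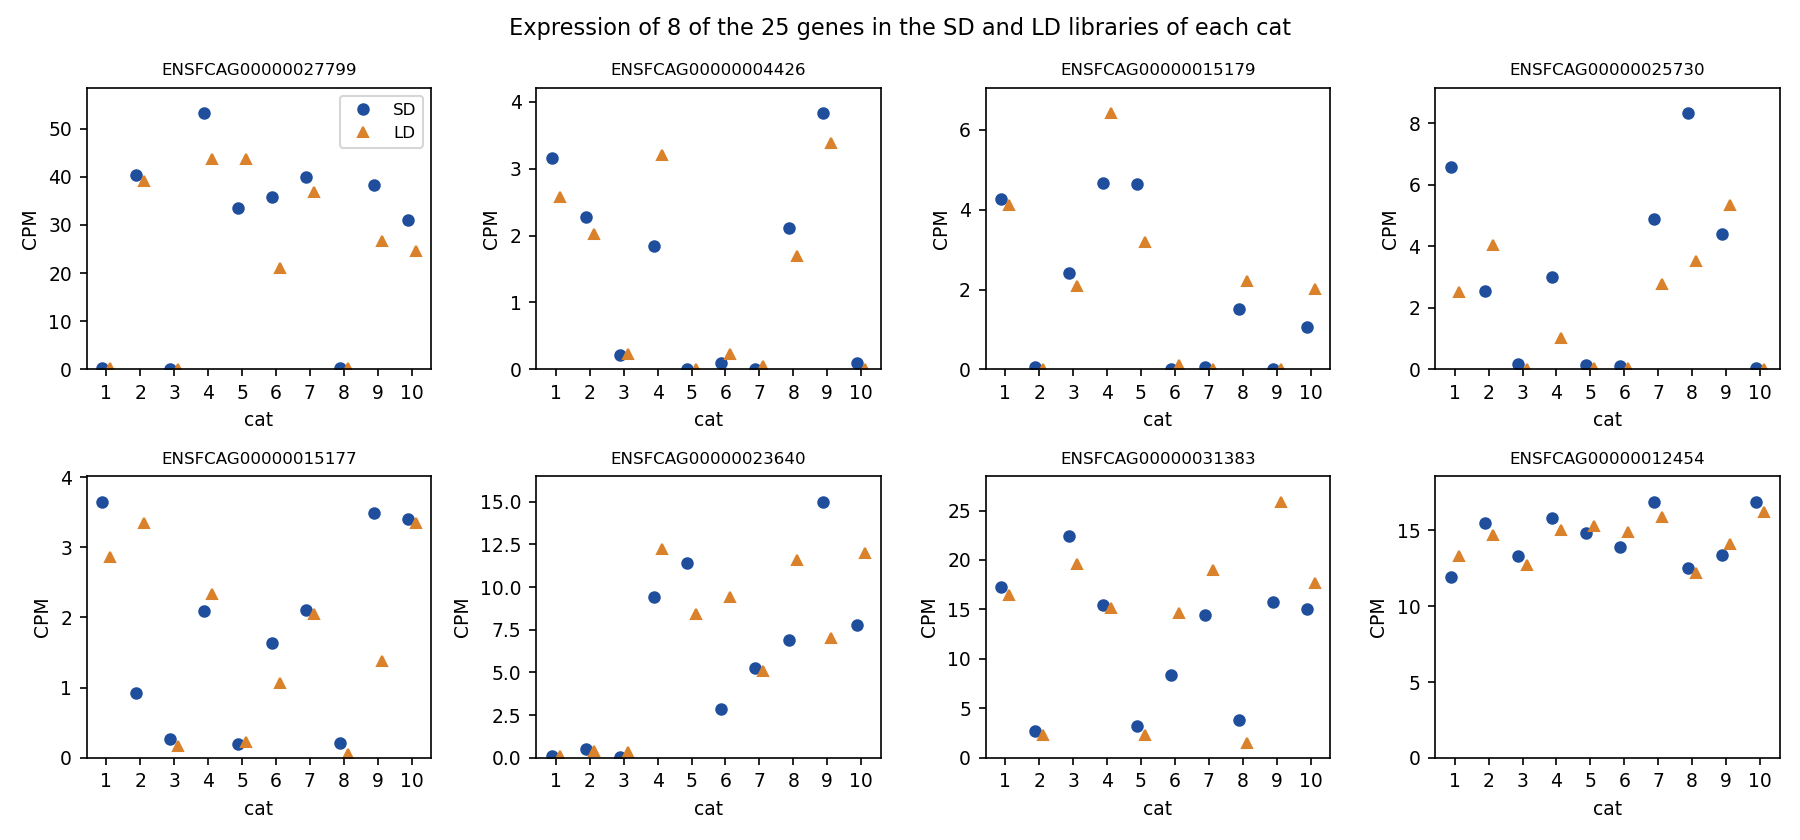
CPM (vertical axis, starting at 0) of 8 of the 25 genes in each of the 10 cats (horizontal axis), with 1 circle for the SD library and 1 triangle for the LD library of each cat. For ENSFCAG00000027799 cats 1, 3 and 8 lie at or below 0.339 CPM on both day lengths and the other cats at 21.1 CPM or more, while ENSFCAG00000012454 differs by small steps between 11.9 and 16.9 CPM.

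A second set of members also differed widely between cats. ENSFCAG00000031383 (ICC 0.913) ranged from 1.47 to 3.84 CPM in cats 2, 5 and 8 and from 8.38 to 25.9 CPM in the other 7 cats. ENSFCAG00000023640 (ICC 0.902) ranged from 0.0551 to 0.523 CPM in cats 1, 2 and 3 and from 2.86 to 15.0 CPM in the rest. In both genes the low and the high cats did not overlap on either day length.

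ENSFCAG00000023471 (ICC 0.885) and ENSFCAG00000026777 (ICC 0.860) were highest in the same cats. For ENSFCAG00000026777, cats 3, 7 and 8 had 137, 213 and 221 CPM on SD and 140, 169 and 242 CPM on LD, where the other cats had at most 93.2 CPM. For ENSFCAG00000023471 these cats had 12.8, 25.2 and 21.1 CPM on SD and 7.95, 15.2 and 13.3 CPM on LD. The other cats had at most 5.82 CPM of it. Over all 25 genes the levels of the highest and the lowest cat, each the mean of its libraries on log2(CPM + 1), differed by 0.395 to 5.47, with a median of 1.67. For all 12706 genes the median was 1.01. This difference exceeded 2 in 11 of the 25 genes, lay between 1 and 2 in 9 and was under 1 in 5.

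In 3 further genes of wide range the cats formed a gradient. ENSFCAG00000026464 (ICC 0.824) was lowest in cat 8 on both day lengths, with 0.703 CPM on SD and 1.36 CPM on LD, and highest in cat 4, with 11.3 and 20.1 CPM. For ENSFCAG00000002015 (ICC 0.812) cat 9 was lowest, with 0.0572 CPM on SD and 0.402 CPM on LD, and cat 2 highest, with 8.83 and 9.02 CPM. ENSFCAG00000005151 (ICC 0.807) was highest in cat 3, with 6.89 CPM on SD and 6.43 CPM on LD, and had medians of 1.01 and 1.15 CPM. In each of these genes the same cat was thus at the top on both day lengths. Other cats changed, such as cat 7 for ENSFCAG00000002015, with 5.49 CPM on SD and 1.73 CPM on LD.

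A middle set of 6 genes had ICCs between 0.807 and 0.862 and differed less between cats. The highest cat was 2.16-fold above the lowest on the (CPM + 1) scale for ENSFCAG00000029463, which ran from 1.86 to 4.39 CPM on SD and from 1.33 to 4.75 CPM on LD, with cat 2 lowest and cat 5 highest both times. It was 2.59-fold above for ENSFCAG00000003303, with cat 7 lowest both times, and 2.78-fold for ENSFCAG00000028735, with cat 10 highest both times. For ENSFCAG00000000077 cat 4 was lowest both times, with 4.19 CPM on SD and 3.78 CPM on LD, and the highest values were 13.5 and 14.0 CPM. ENSFCAG00000031034 ran from 2.12 to 7.88 CPM on SD and from 1.89 to 10.8 CPM on LD, and ENSFCAG00000029183 from 0.690 to 7.24 CPM on SD and from 1.09 to 6.17 CPM on LD. In these last 2 genes the cat at either end was not the same on SD as on LD.

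The 5 members with differences under 1 were ENSFCAG00000009483, ENSFCAG00000006623, ENSFCAG00000012454, ENSFCAG00000031276 and ENSFCAG00000004154. All had at least 1 CPM in every library. ENSFCAG00000012454 had the smallest differences, with 11.9, 14.3 and 16.9 CPM as its lowest, median and highest value on SD and 12.2, 14.8 and 16.2 CPM on LD, and its highest cat was 1.32-fold above its lowest on the (CPM + 1) scale. ENSFCAG00000006623 ran from 40.7 to 56.7 CPM on SD, with a median of 48.6, and from 38.0 to 62.0 CPM on LD, with a median of 48.3. The place of 10 of the 25 genes in the group depended on the scaling of the libraries, these 5 among them. With TMM normalization, which rescales each library so that most genes are level between libraries, their ICCs were 0.20, 0.27, 0.12, -0.36 and -0.11, in the order of the names above. The other 5 that fell under 0.8 were ENSFCAG00000025730 at 0.79 and ENSFCAG00000015177 at 0.68, both described above as expressed in some cats and hardly in others, with ENSFCAG00000000077 at 0.75, ENSFCAG00000031034 at 0.62 and ENSFCAG00000029463 at 0.35. The TMM factors ran from 0.594 to 1.39.

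**Figure D2:**
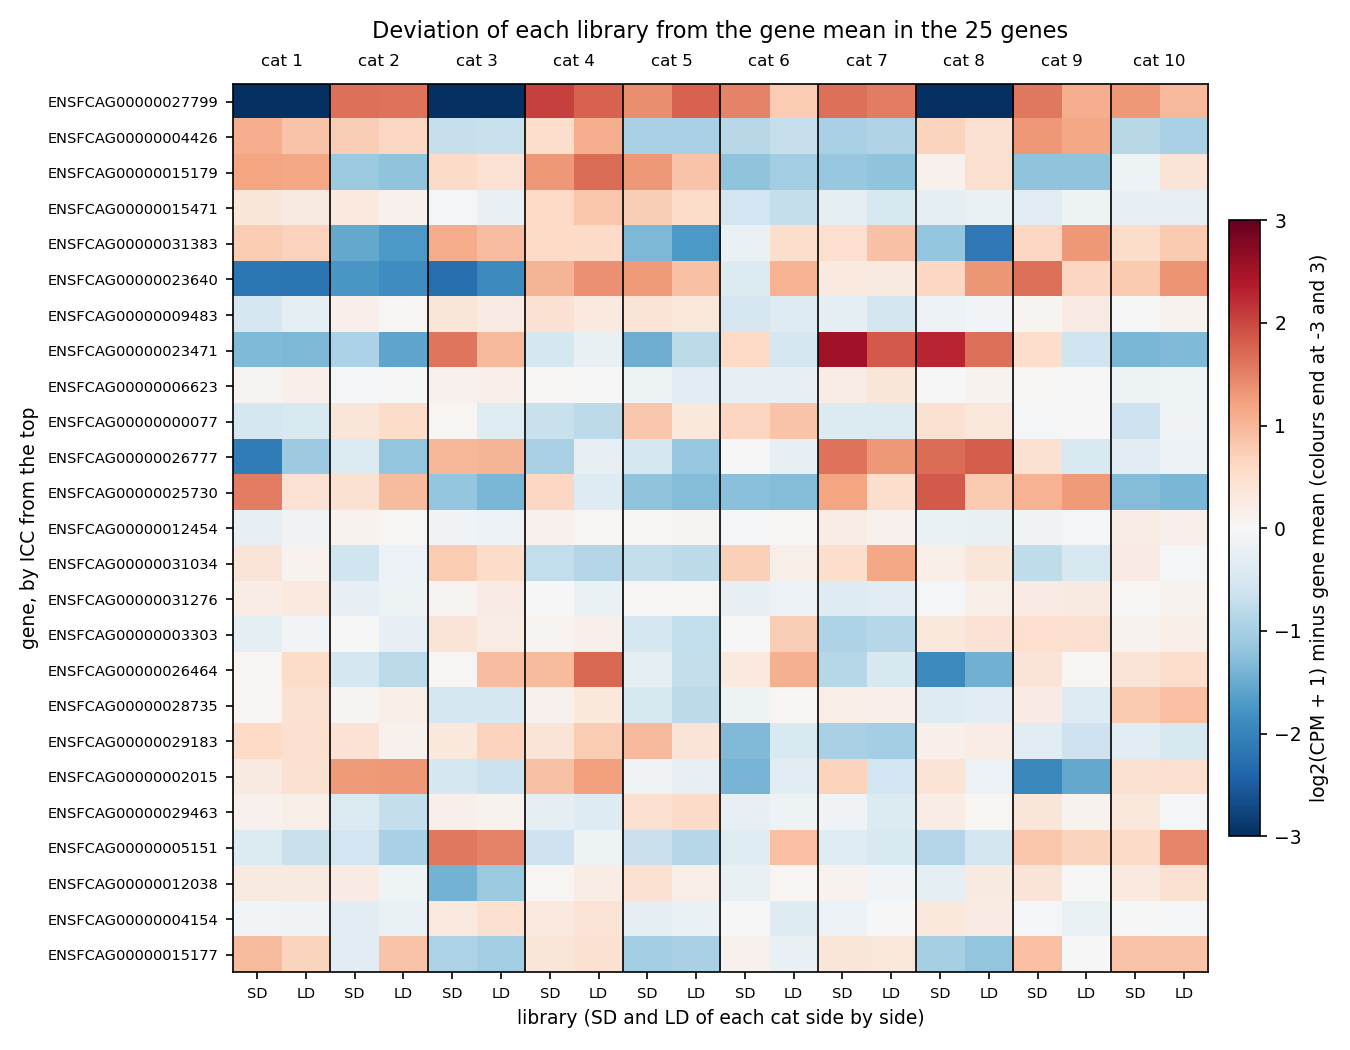
Deviation of each library from the gene's mean on log2(CPM + 1), in colour from blue (lower) to red (higher) and cut off at a deviation of 3 either way, for the 25 genes (rows, ICC falling from 0.990 at the top to 0.803 at the bottom) and the 20 libraries (columns, SD and LD of each cat side by side). The columns of a cat have similar colours, strongest for ENSFCAG00000027799 and pale for genes such as ENSFCAG00000012454.

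The group was chosen on its spread between and within cats, so the following values describe the choice. The ICC ranged from 0.803 to 0.990, with a median of 0.854, against a median of -0.0611 over the 12706 genes, of which 60.1% had an ICC below 0. An ICC of 0.9 or more was found for 6 genes. The 25 genes were 0.197% of those above the minimum level. Nearest to the threshold were ENSFCAG00000004154 at 0.804 and ENSFCAG00000015177 at 0.803 on the inside, and genes at 0.799 and 0.796 on the outside, so the threshold parted genes of nearly equal ICC.

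**Figure D3:**
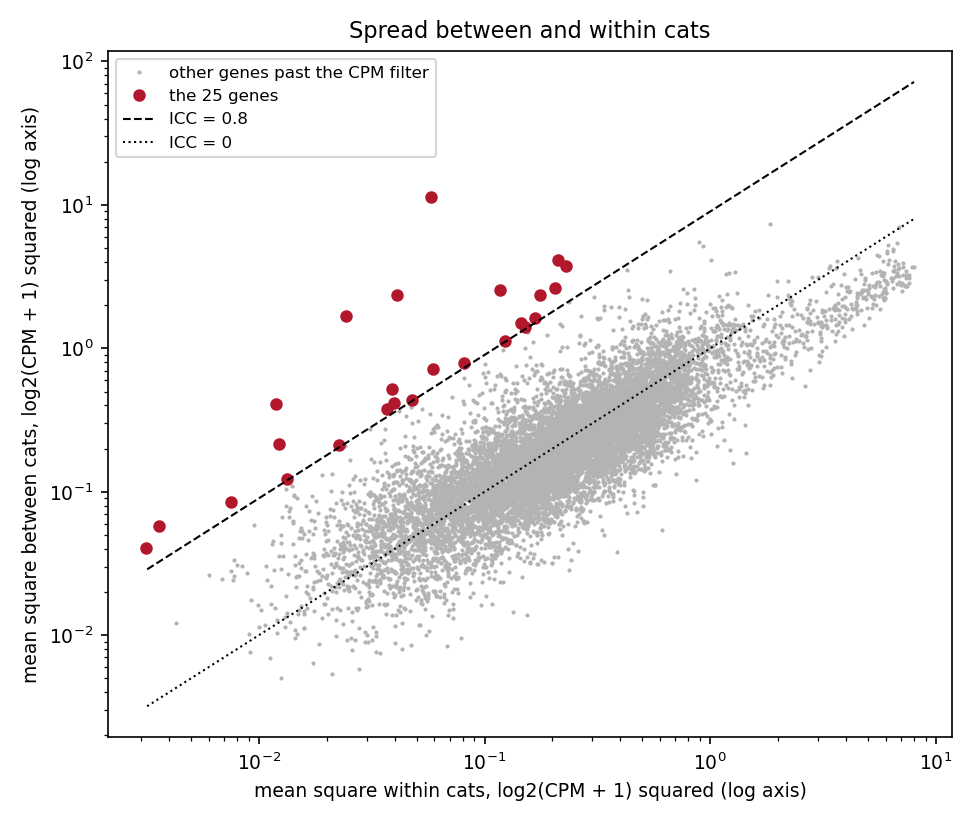
Mean square between cats (vertical, log axis) against mean square within cats (horizontal, log axis) of log2(CPM + 1) for the 12706 genes, 1 point each, with the 25 genes in red. The dashed line marks an ICC of 0.8 and the dotted line an ICC of 0, below which 60.1% of genes lie, and ENSFCAG00000027799 is the red point farthest above the dashed line.

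When the libraries of the second period were exchanged among cats so that no cat kept its own, the number of genes at an ICC of 0.8 or more had a median of 2 over 100 exchanges, with quartiles of 1 and 5. The range was wide, from 0 to 523, and 6 of the 100 exchanges gave at least 25 genes. The main component of variation between libraries accounted, among the 25 genes, for between 0.0308% and 29.7% of the variance, with a median of 6.00%, where the median over the 12706 genes was 52.4%. None of the 25 was above that median. Among genes that reached an ICC of 0.8 in the exchanges, the median was 67.5%. On this component cat 6 had 0.447 on SD and -0.398 on LD, and cat 2 had 0.0806 and 0.149. A gene that follows it therefore gains mean square within cats, so a low share favoured the choice and is no independent result. With this component removed from each gene, 19 of the 25 genes were still at an ICC of 0.8 or more, and 87 genes reached it in all.

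The genes also differed in how far 1 cat decided their ICC. With each cat left out in turn, 14 of the 25 stayed at 0.8 or more every time. The exception of greatest size was ENSFCAG00000012038 (ICC 0.804), which fell to 0.0310 without cat 3. That cat had 0.386 CPM on SD and 0.701 CPM on LD, where the other cats had between 2.00 and 4.07 CPM on SD and between 2.37 and 4.04 CPM on LD. The other 10 genes that dropped under the threshold had lowest ICCs between 0.695 and 0.772. No cat stood at the extreme throughout: each cat had the lowest mean level for 2 to 4 of the genes and the highest for 1 to 5.

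Over the 7 other ways of scaling or adjusting the values, 4 of the 25 genes stayed at 0.8 or more each time: ENSFCAG00000027799, ENSFCAG00000004426, ENSFCAG00000015179 and ENSFCAG00000015471. These were also the 4 genes of highest ICC, and they stayed at 0.8 or more whichever cat was left out. ENSFCAG00000015471 (ICC 0.943) changed by degrees, with 0.641, 1.22 and 3.10 CPM as its lowest, median and highest value on SD and 0.507, 1.17 and 3.40 CPM on LD. Cat 6 was lowest on both day lengths and cats 4 and 5 highest.

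Counting error alone sets a floor for the spread between libraries of the same cat. The mean square within cats was 0.442 to 80.5 times the value that counting error would give, with a median of 3.02 over the 25 genes and 33.3 over the 12706 genes. It was below the counting value for ENSFCAG00000015471, with 9 to 54 counts per library, and for ENSFCAG00000012454, with 192 to 348 counts. For these 2 genes the libraries of a cat were closer than counting error allows on average, and their ICCs of 0.943 and 0.854 include that closeness. At the other end, ENSFCAG00000026777, with 245 to 4276 counts, had 80.5 times the counting value and reached its ICC through its spread between cats.

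Whether SD and LD differed in these genes was examined in 14245 genes, those that reached 1 CPM in any library, by the quasi-likelihood test of edgeR. Since small differences within cats favoured the choice, the counts below describe the group and are no independent result. The tests of this paragraph also did not pair the libraries of a cat. Their error therefore held the spread between cats, which was wide in many of these genes. A raw P under 0.005, the study's threshold, was reached by none of the 25 and by 0.302% of all genes. None had a raw P under 0.05, where 5.18% did, and the smallest raw P was 0.156. In the same edgeR test the Benjamini-Hochberg adjusted P of the 25 genes was 0.783 or higher, and 0.783 was also the smallest over all genes. In DESeq2 none of the 25 had a raw P under 0.005 or under 0.05, where 0.695% of all genes were under 0.005 and 6.13% under 0.05.

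With each cat as a block the count stayed at 0 of 25 under a raw P of 0.005, where 0.161% of all genes passed (23 genes, against 43 without the block). Under a raw P of 0.05 there were 2 of the 25, where 4.52% of all genes passed. These 2 were ENSFCAG00000025730, with 3.02 ± 2.99 CPM under SD and 1.93 ± 1.97 CPM under LD (± standard deviation, n = 10), and ENSFCAG00000023471, with 7.62 ± 9.06 CPM under SD and 4.73 ± 5.47 CPM under LD. They are named here after their values were seen. Their log2 fold changes, SD over LD, were 0.89 (SE 0.39, raw P = 0.0396) and 0.67 (SE 0.30, raw P = 0.0461) in edgeR with the block, and the smallest adjusted P of the 25 genes was 0.740. SD was above LD in 8 of 10 cats for the first and in 7 of 10 for the second. With period added to the block, 3 of the 25 genes were under a raw P of 0.05 in edgeR, where 510 of 14245 genes were. None of the 25 was under 0.005 in that fit.

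For the genes that head the group the day lengths were close beside the spread between cats, which the choice favoured. ENSFCAG00000015471 had a log2 fold change, SD over LD, of 0.18 (SE 0.33) without the block and 0.23 (SE 0.20) with it. ENSFCAG00000027799 had a log2 fold change of 0.28 (SE 0.91) without the block and 0.29 (SE 0.24) with it. For ENSFCAG00000004426, with 1.36 ± 1.46 CPM under SD and 1.34 ± 1.40 CPM under LD, it was 0.16 (SE 0.87) and 0.17 (SE 0.31). For ENSFCAG00000015179 the values were 0.093 (SE 0.90) and 0.033 (SE 0.29), and for ENSFCAG00000031383 they were 0.0047 (SE 0.49) and 0.17 (SE 0.20). The last 2 genes were lower on SD when libraries were scaled by total only, at -0.11 and -0.18. Over the 25 genes the median SE was 0.406 without the block and 0.188 with it, where over all genes it was 0.191 and 0.187. The SE was smaller with the block in 23 of the 25 genes and in 44.5% of all genes. A wide spread between cats, which the block takes out, favoured the choice. These SEs therefore describe the group and are no independent result.

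**Figure D4:**
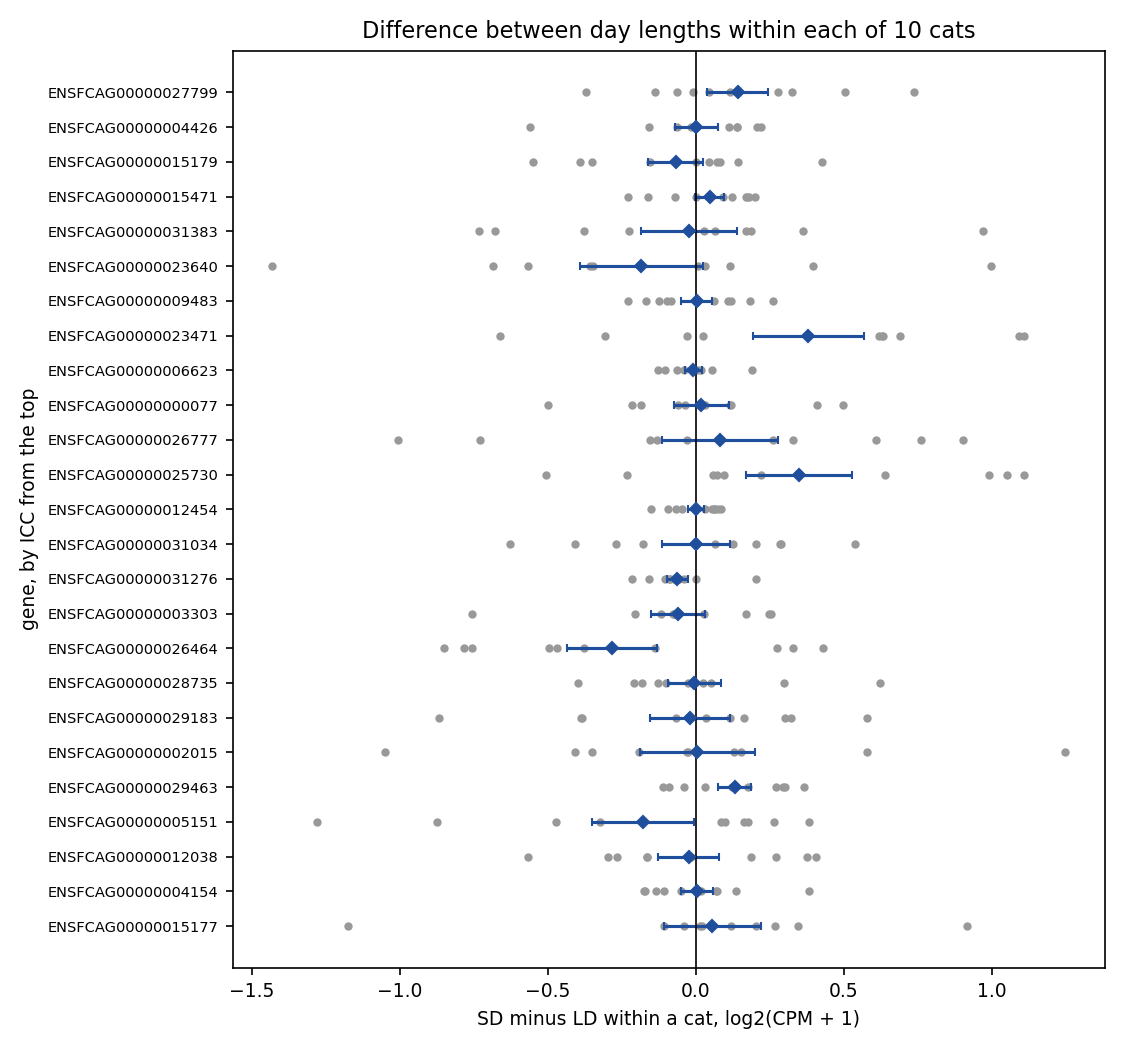
Difference of log2(CPM + 1) between the SD and LD library of each cat (horizontal axis, 10 grey points per gene) for the 25 genes (vertical axis, ICC falling from top to bottom), with the mean and its SE over 10 cats as a blue diamond and bar. The means lie on both sides of 0, 14 above and 11 below, and the points of ENSFCAG00000012454 and ENSFCAG00000006623 are the closest to 0.

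The direction of the 25 genes between day lengths depended on the scaling. After TMM normalization 22 had a log2 fold change above 0 and 3 below, with a median of 0.16, where the median over all genes was -0.0067. With libraries scaled by total only, 14 were above 0 and 11 below, with a median of 0.0047, and the median over all genes moved to -0.17. Relative to the median of all genes the group lay 0.17 higher on SD under the former and 0.18 higher under the latter. The members were chosen on values scaled by total, so a median near 0 on that scale follows from the choice.

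The second period was compared with the first with day length in the model, at first without the cat as a block. A difference between periods also adds to the mean square within cats. Small ones therefore favoured the choice, and these counts describe the group and are no independent result. In edgeR none of the 25 was under a raw P of 0.005, where 0.541% of all genes were, or under 0.05, where 6.64% were, and the smallest was 0.285. In DESeq2 none was under either value, where 0.863% of all genes were under 0.005 and 6.89% under 0.05. With each cat as a block in edgeR none of the 25 was under either value, where 0.281% and 6.0% of all genes were. The smallest raw P of the 25 in that fit was 0.106, for ENSFCAG00000012038. The median absolute log2 fold change in edgeR without the block was 0.165 for the 25 genes and 0.164 for all genes. Of the 25 genes, 22 were lower and 3 higher in the second period after TMM normalization. Whether this direction depended on the scaling, as it did for day length, was not tested. The direction over all genes was not counted, and the members were chosen on values scaled by total. The 22 of 25 is therefore no result about the group.

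The 6 cats with LD first were compared with the 4 cats with SD first on the summed counts of each cat, using edgeR. The order was not used in the choice, but large differences between cats were. No member was under a raw P of 0.005, where 0.102% of the 13779 genes tested were, and none in DESeq2, where 0.392% were. A raw P under 0.05 was found for 1 of the 25, where 2.47% of all genes passed. This was ENSFCAG00000009483, named after its value was seen, with a log2 fold change of 0.35 (SE 0.15, raw P = 0.0388) for LD first over SD first and an adjusted P of 0.999 in edgeR. Its SD libraries held 15.7 to 25.2 CPM in the cats with LD first and 12.3 to 19.1 CPM in those with SD first, so the orders overlapped. Without cat 1 the count under 0.005 rose to 2 of the 25, ENSFCAG00000015179 and ENSFCAG00000029183, where 0.225% of all genes were under it. The median absolute log2 fold change between orders was 0.24 for the 25 genes and 0.13 for all genes.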

How the data were processed

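Single-end reads came from the RNA of 20 adipose biopsies. The authors used Seqtk for trimming, TopHat with Bowtie for alignment to Felis_catus_6.2 and htseq-count for counting, and deposited raw counts per gene without normalization. Of 5 summary entries 2 were at 0, and reads on no annotated gene made up 24.9% of reads on average. The strand setting is not given in the sources used here, so overlapping genes and near copies may share reads. The reference list given matched none of the identifiers, so the gene lists drawn up by symbol were not used.

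CPM used the total over genes. Tests used edgeR 4.0.16 in R 4.3.3 with TMM and DESeq2 1.42.0, and the SEs of edgeR were taken from the F statistic. Only the edgeR fit of day length without the block was run on simulated counts. Those counts held no differences between cats. Members and lists were chosen with earlier results of these data known. Genes to be named were the 2 of highest ICC on either side of 0 for SD minus LD, and others were singled out after their values were seen. The libraries are paired because the labels give them to the same cat. The mean correlation of deviations was 0.0238 within cats (range -0.564 to 0.679) and -0.00124 for different cats. These correlations do not bear out the pairing. No library was a copy of another (lowest chi-square per gene 24.7 over 190 pairs). Floors cover counting error only.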

Additional observations from a re-analysis of the deposited data

Results flagged for a closer look

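In ENSFCAG00000012038, cat 3 lay far below the other cats on both day lengths, with 0.386 CPM under SD and 0.701 CPM under LD. On log2(CPM + 1) the gap to the nearest cat was 0.596 of the range on SD and 0.629 on LD, more than Dixon's 95% critical value for 10 samples. On CPM the gap was 0.438 of the range on SD, less than that value, and 0.50 on LD, more than it, so only the LD value stood apart on both scales. The LD library of cat 7 stood apart in the same way by its number of reads on genes, 21926358. Of 52 groups of 10 libraries examined, genes on log2(CPM + 1), 3 were flagged. Chance flags about 1 in 20 when groups are independent and values follow a normal distribution. That rate does not carry over here, because the SD and LD values of a member repeat each other by the choice and some members have separate low and high cats. The flags of ENSFCAG00000012038 on SD and LD are therefore not separate events.

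Outside the values used above, reads on no annotated gene made up 24.9% of the reads of a library on average. Among the 1539 genes with at least 1 CPM in 1 to 9 libraries, which the minimum level left out, 14 (0.910%) had an ICC of at least 0.8.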

How the results depend on the processing

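The number of genes at the ICC threshold was 25. It was 65 with TMM-normalised CPM (15 of the 25 kept), 40 with period means removed (25 kept), 87 with component 1 removed (19 kept), 50 without the cats of the lettered libraries (22 kept), 39 with a minimum of 1 CPM in at least 1 library, 10 with 1 CPM in all 20 libraries, 70 at a threshold of 0.7 and 6 at 0.9. Leaving out 1 cat gave 24 to 51, the highest without cat 6 (25 kept). Pseudocounts of 0.25 and 5, removal of day-length means and ranks left it within 1.5 times (24, 20, 25 and 10 kept).

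Under a raw P of 0.005 the count of the 25 genes stayed at 0 for day length and for period in every alternative run. For order it ran from 0 to 2 when 1 cat was left out (2 without cat 1, where 31 of 13763 genes passed). Over all genes, day length gave 43 genes, 23 with the replicate block, 21 with the replicate block and period as a covariate, 99 with DESeq2, 21 without the cats of the lettered libraries (chosen after seeing the data) and 22 to 206 without 1 cat (highest without cat 5, lowest without cat 6). Period gave 77, 40 with the replicate block, 123 with DESeq2 and 20 to 127 without 1 cat (highest without cat 7, lowest without cat 6). Order gave 14, 54 with DESeq2 and 11 to 62 without 1 cat (highest without cat 3).

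For the 4 genes named by rule, 61 log2 fold changes (SD over LD) kept direction and 11 reversed. ENSFCAG00000031383 went from 0.0047 to -0.18 with library size only and -0.0005 without a filter, and ran from -0.0890 to 0.165 without 1 cat (below 0 without cats 1, 3, 4, 6 and 8). ENSFCAG00000015179 went to -0.11 with library size only and ran from -0.0468 to 0.1828 without 1 cat, and ENSFCAG00000004426 from -0.0131 to 0.2871, both below 0 without cat 1. ENSFCAG00000027799 went to -0.11 without the cats of the lettered libraries. The causes were not tested. The ICCs of these 4 genes ran from 0.714 (ENSFCAG00000031383, ranks) to 0.995 over the alternatives run.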

Other observations

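The minimum level of 1 CPM in at least 10 libraries cannot be met by a gene that fewer than 5 cats express at that level. Of the 14 genes below it with an ICC of at least 0.8, 4 reached 1 CPM in both libraries of exactly 1 cat, 2 in exactly 2 cats, 4 in 3 or more cats and 4 in no cat. ENSFCAG00000013254 (ICC 0.957) had 44 counts on SD and 69 on LD in cat 8, and 0 to 2 counts in each library of the other 9 cats. ENSFCAG00000031604 (ICC 0.966) had 16 to 48 counts in each library of cats 1, 3, 5, 6, 8 and 10 and 0 to 3 in those of cats 2, 4, 7 and 9. These genes were examined after their values were seen and were not tested.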
